A study of Homo sapiens with 7 samples.

Results

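The loci described here are those of 10 genes that make polyamines and nucleotides, taken from a genome-wide map of MYCN binding in Kelly cells. They are ODC1, SRM and AMD1 of polyamine synthesis, PPAT, PAICS, GART and IMPDH2 of purine synthesis, CAD of pyrimidine synthesis, and RRM2 and TYMS of deoxynucleotide synthesis. Members were chosen by gene, not by signal: every MYCN summit (the position of locally highest signal in a peak) inside a window of the gene plus about 10 kb on each side was taken. PPAT and PAICS share 1 window, so there were 9 windows. They spanned 387 kb and held 52 of the 64657 summits in the list, in 25 of its 47765 intervals.

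Kelly is an established human neuroblastoma line with amplified MYCN and mutant ALK, a receptor tyrosine kinase. The study set TAE684-sensitive Kelly cells, given the vehicle DMSO, against cells resistant to the ALK inhibitor TAE684, kept in 1 µM of it, both for 48 h before chromatin immunoprecipitation and sequencing (ChIP-seq). Per the labels each state had 2 MYCN ChIP samples. Input, which is chromatin sequenced without an antibody, came from 1 sample of the sensitive and 2 of the resistant cells. Each state had 1 peak list for both of its ChIP samples, and the resistant list repeated the sensitive one in all 64657 rows, down to the peak names. All values therefore describe the sensitive cells, without replicate error and without a comparison of the states.

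MYCN pairs with MAX to bind DNA, with CACGTG, the E-box, as its preferred site, and genes of growth metabolism are among the best known targets of the MYC family. Polyamines are small positively charged molecules that bind nucleic acids. They are made from ornithine and decarboxylated S-adenosylmethionine, and dividing neuroblastoma cells depend on them. Purines and pyrimidines are built stepwise from amino acids, bicarbonate and one-carbon units, then reduced to the deoxynucleotides from which DNA is copied.

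The sequences below are shown because they are start regions of members with MYCN summits nearby that hold the E-box CACGTG or, at the upstream ODC1 start, only the related CACGCG. They come from RefSeq on GRCh38.p14, run from 250 bases before to 50 bases after an annotated start, and are written 5′ to 3′ on the strand of the gene. Capitals mark CACGTG, or CACGCG read on either strand. The peaks are on hg19 and nothing was converted between the builds, so a match is not placed under a summit.
ODC1, upstream start (chr2:10448278-10448577, minus strand): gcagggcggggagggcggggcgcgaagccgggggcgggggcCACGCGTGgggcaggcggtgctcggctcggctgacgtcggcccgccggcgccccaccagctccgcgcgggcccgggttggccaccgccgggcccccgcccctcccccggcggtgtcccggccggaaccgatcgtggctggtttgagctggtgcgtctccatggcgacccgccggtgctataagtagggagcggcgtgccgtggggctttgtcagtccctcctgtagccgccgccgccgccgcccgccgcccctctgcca
ODC1, downstream start (chr2:10447963-10448262, minus strand): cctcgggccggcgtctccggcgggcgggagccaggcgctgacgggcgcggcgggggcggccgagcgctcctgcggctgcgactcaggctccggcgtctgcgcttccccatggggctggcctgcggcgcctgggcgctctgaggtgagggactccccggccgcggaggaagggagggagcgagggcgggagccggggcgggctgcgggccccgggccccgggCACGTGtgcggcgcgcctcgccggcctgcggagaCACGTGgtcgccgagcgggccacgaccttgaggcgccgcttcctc
SRM (chr1:11059969-11060268, minus strand): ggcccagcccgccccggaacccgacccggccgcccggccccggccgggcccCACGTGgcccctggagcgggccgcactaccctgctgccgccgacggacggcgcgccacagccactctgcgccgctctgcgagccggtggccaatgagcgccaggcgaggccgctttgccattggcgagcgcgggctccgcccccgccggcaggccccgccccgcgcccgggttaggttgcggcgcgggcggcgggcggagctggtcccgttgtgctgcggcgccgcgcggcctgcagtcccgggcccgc
PPAT (chr4:56435566-56435865, minus strand): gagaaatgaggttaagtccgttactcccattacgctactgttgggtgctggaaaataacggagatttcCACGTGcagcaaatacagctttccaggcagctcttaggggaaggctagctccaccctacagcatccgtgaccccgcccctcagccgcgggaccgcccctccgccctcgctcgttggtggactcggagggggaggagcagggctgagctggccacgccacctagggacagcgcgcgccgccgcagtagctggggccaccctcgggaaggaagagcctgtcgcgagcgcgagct
The downstream ODC1 start had CACGTG at 2 places, with its first base at -29 and at 6 counted from the start as 1. The upstream start had the overlapping pair CACGCG and CGCGTG, at -209 and -207. In SRM the E-box began at -199 and in PPAT at -182. One PAICS start region (chr4:56435502-56435801, plus strand) shared 236 bases with that of PPAT on the opposite strand, and its CACGTG, at 41, was the same site.

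RefSeq start regions were found for 9 of the 10 members, IMPDH2 being the exception. CACGTG was present in 4 of these 9 genes (ODC1, SRM, PPAT and PAICS), of which PPAT and PAICS count the same site. A gene was counted if any of its start regions held the motif. Over all 27305 genes of the table the share was 8.77%, and over its 35116 start regions it was 7.26%. ODC1, RRM2, PAICS, AMD1 and GART had multiple start regions, which gives a gene more chances to match. The part of this in the member counts was not tested. With CACGCG allowed as well, the same 4 members matched, against 20.3% of all genes. The looser CANNTG, which includes CACGTG, was found in 7 of 9 members and 73.1% of all genes, so it did not set the members apart. The other genes of these pathways were examined in the promoter table only. Of 21 such genes with a sequence, CACGTG was found in 3: ATIC, which completes purine ring synthesis, DHODH, which oxidises dihydroorotate, and MTHFD1, which supplies one-carbon units. MYCN summits at those genes were not analysed here, because no hg19 gene positions were used. The start regions of the members were also rich in G and C, with a median of 68.3% against 58.7% over the table. The part of base composition in the match counts was not tested.

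MYCN summits were found in all 9 windows, and every window held at least 4. The windows carried 134 summits per Mb, against 21.3 per Mb over chromosomes 1 to 22 and X up to their last peak. The ratio was 6.31 (95% CI 4.71 to 8.27, counting error only, with summits taken as independent). Summits of 1 interval are not independent, and counting intervals in place of summits gave 4.10, below that range. For scale, 32.6% of 40-kb tiles of those chromosomes held at least 1 summit and 7.57% held at least 4, while the windows were 26 to 89 kb long with a median of 37 kb. The tiles include gene-free and unmappable sequence and the windows were placed on genes, so these shares do not compare the members with other genes.

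Most MYCN summits in the windows sat near the gene starts. The 5′ end of each gene was taken from its window, 10 kb inside the edge, and is approximate. For 6 genes the window less its flanks was 0.425 to 1.57 kb longer than the RefSeq gene. For AMD1 and RRM2, whose RefSeq models are longer than their windows, the position could not be checked in this way. For the PPAT and PAICS pair it was reached from the far edge of PPAT with the RefSeq gene length. All 10 genes had a summit within 3 kb of the 5′ end, PPAT and PAICS being counted by the same one, and the nearest one lay 0.016 to 0.758 kb away. A summit occurred in 7.67% of 6-kb tiles, which include gene-free sequence and so do not compare the members with other gene starts. Of the 52 summits, 33 were within 3 kb of a 5′ end and 19 were elsewhere. In the GART, RRM2 and TYMS windows there was no summit outside this zone.

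**Figure D1:**
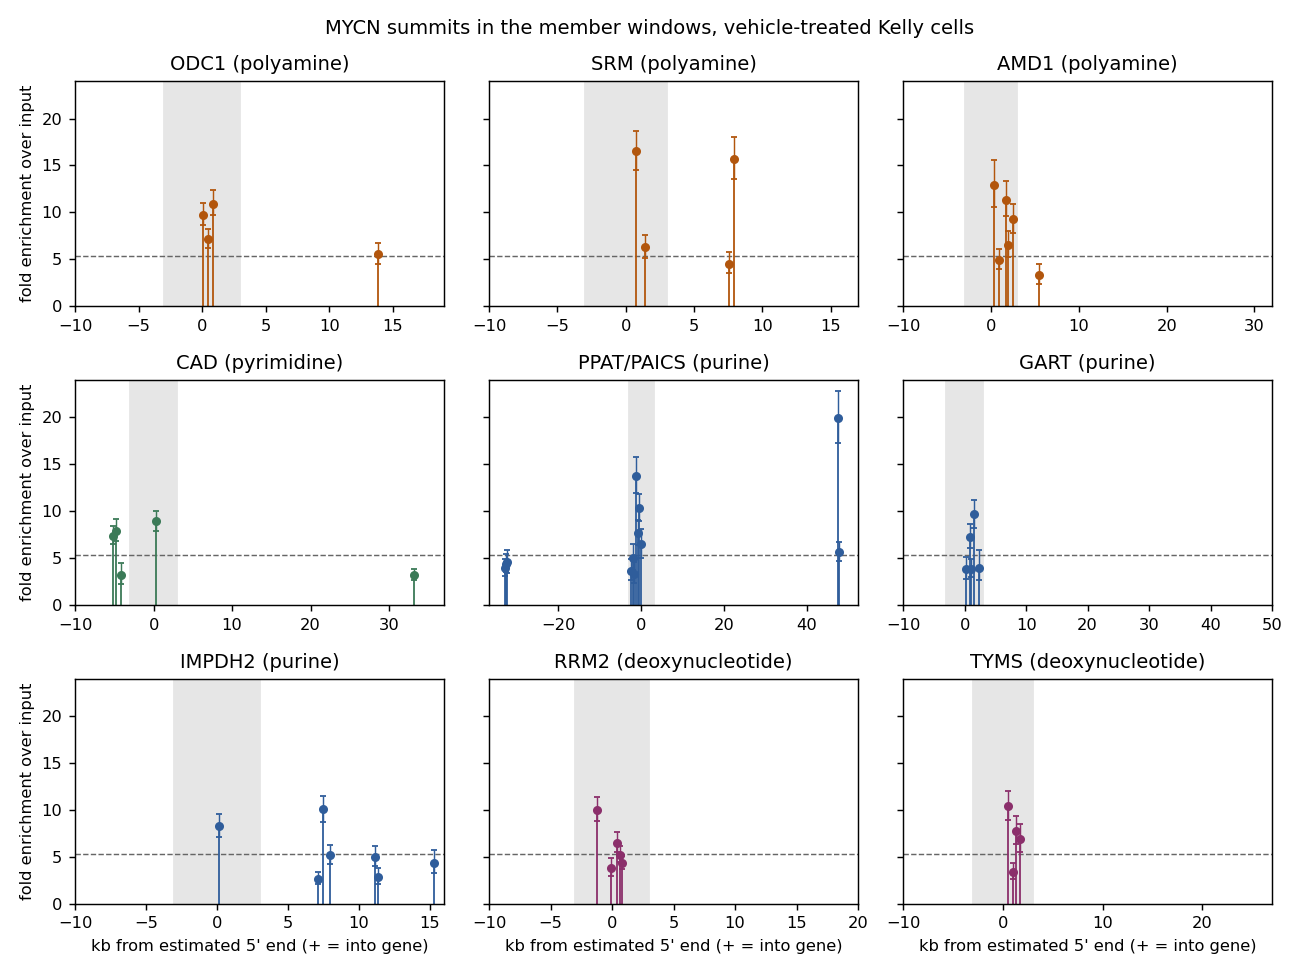
Fold enrichment over input (vertical axis) of each MYCN summit against its distance in kb from the estimated 5′ end (horizontal axis, positive into the gene, and into PPAT for the shared window), 1 panel per window. Bars on the points are 95% counting intervals from the ChIP fragments, the grey band is 3 kb on each side of the 5′ end and the dashed line is the median of the list, 5.35. Summits crowd inside the band, and the highest point of all, 19.9, stands 47.6 kb away from the PPAT and PAICS starts.

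Among the polyamine genes, SRM had the summit of highest fold enrichment and ODC1 the summit with most ChIP fragments, both at the gene starts. The 3 genes together had 14 summits with a median fold enrichment of 8.22. That value was 5.35 over the whole list. The fold enrichment is the deposited ratio of ChIP to local background at the summit.

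ODC1 encodes ornithine decarboxylase, the first and rate-limiting enzyme of the pathway, and is one of the oldest known MYC targets. Its start lay in a 1687-bp interval on chromosome 2 from 10587739 to 10589425 (hg19) with 3 summits. From the upstream side into the gene, they had fold enrichments of 9.75, 7.18 and 10.9, at 10588911, 10588518 and 10588154. Both flanking summits were higher than the middle one, whose 95% counting interval of 6.25 to 8.20 overlapped neither of theirs (8.63 to 11.0 and 9.67 to 12.3). These intervals come from the ChIP fragments alone, with the background held fixed. The summits were covered by 272, 211 and 264 ChIP fragments, numbers recovered from the fold and p-value of each summit. The 272 fragments exceeded 99.9% of the list, while the fold of 9.75 at the same summit exceeded 87.1%, over a local background of 17 input fragments. The remaining ODC1 summit, 13.8 kb from the 5′ end and beyond the 3′ end, had a fold enrichment of 5.53.

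SRM encodes spermidine synthase, which adds an aminopropyl group to putrescine. Its start interval, on chromosome 1 from 11119368 to 11120628, had 2 summits. The one nearer the 5′ end, at 11120243, reached a fold enrichment of 16.5 (95% counting interval 14.6 to 18.7) with 256 ChIP fragments. This was the highest fold near any of the 5′ ends and exceeded 98.2% of the list, and its −log10 q of 137 was the highest of the 52 summits. The other, further into the gene, had 6.28. A separate interval beyond the 3′ end of SRM, from 11112795 to 11113723, was nearly as strong. Its summit at 11113095 reached 15.7 (13.6 to 18.0) with 194 ChIP fragments. The counting intervals of these summits overlapped, so their order by fold is not settled.

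AMD1 encodes S-adenosylmethionine decarboxylase, which supplies the aminopropyl donor. Its MYCN signal was spread over neighbouring intervals rather than piled on one. On chromosome 6, the interval from 111195131 to 111196091 had summits with fold enrichments of 12.9 and 4.93, and the next, from 111196401 to 111197807, had 11.3, 6.52 and 9.27. The strongest, at 111195296, had a background of only 4.34 input fragments and 106 ChIP fragments. The deepest, at 111197527, had 143. RefSeq also lists an AMD1 start outside the window, which was not analysed here. A weak summit 5.45 kb into the gene had a fold enrichment of 3.33.

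The start of CAD had a single, deep summit, and the window held 4 more. CAD is the enzyme that carries the first 3 steps of pyrimidine synthesis on one polypeptide. Its start interval, on chromosome 2 from 27440044 to 27440830, had 1 summit at 27440325 with 277 ChIP fragments, the most at any of the 52 summits. The highest number in the whole list was 280, equal to 2 fragment lengths of 140 bp. Whether 280 is a ceiling on the count was not tested, so numbers close to it may understate depth. The fold enrichment was 8.93 (95% counting interval 7.92 to 10.0), over a background of 19 input fragments. CAD ranked first of the 9 windows by most fragments and last by the highest fold enrichment anywhere in the window. Near the 5′ ends alone, only IMPDH2 had a lower highest fold. About 5 kb before the gene, where RefSeq places SLC5A6 and ATRAID as the next genes, an interval from 27434442 to 27435554 had fold enrichments of 7.39 and 7.93. These summits were deep as well, with 229 and 184 ChIP fragments, more than 98.4% and 94.6% of the list. The remaining CAD summits had low fold enrichments, 3.22 before the gene and 3.19 beyond its 3′ end.

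Purine synthesis had the most summits, 24 in 3 windows, with a lower median fold enrichment of 4.99. The count did not simply follow window length. These windows had 12 summits in 89 kb (PPAT and PAICS), 5 in 60 kb (GART) and 7 in 26 kb (IMPDH2). Per 10 kb they held 1.35, 0.833 and 2.69 summits, and the other windows 1.06 to 1.67. PPAT encodes the enzyme that commits phosphoribosyl pyrophosphate to the pathway, and PAICS, transcribed in the opposite direction from a shared start region, acts at later steps. Their common start lay in the widest interval of the 25, 1774 bp on chromosome 4 from 57300996 to 57302769. Its 4 summits, ordered from PPAT toward PAICS, had fold enrichments of 6.46, 10.3, 7.67 and 13.8. The last, at 57302587, had 213 ChIP fragments. Weaker summits followed on the PAICS side, with 3.35 and 4.999 in another interval and 3.65 in the next.

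The highest fold enrichment in any window was not at a member's start. It was 19.9 (95% counting interval 17.3 to 22.8) with 203 ChIP fragments, at 57253679 in the PPAT and PAICS window, past the 3′ end of PPAT. On that side AASDH is the next gene in RefSeq and is transcribed in the same direction as PPAT, so that its start faces PPAT. Which gene this site belongs to cannot be told apart here. At the other edge, toward SRP72, 3 summits had fold enrichments of 3.93 to 4.53.

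GART encodes a protein with 3 activities of the pathway, and its start had the fewest ChIP fragments at its deepest summit among the purine genes. The 1731-bp interval on chromosome 21 from 34914162 to 34915892 held 4 summits. In the direction of the gene, their fold enrichments were 3.81, 7.26, 3.84 and 9.65, so high and low summits alternated. The strongest, at 34914412, had 164 ChIP fragments. A separate small interval further in had 3.998 with 23 ChIP fragments, the fewest at any of the 52 summits. SON is the next gene beyond the GART start in RefSeq and is transcribed away from it. The window less its flanks was 40 kb and the RefSeq gene 38.96 kb, so the 5′ end may lie further in than estimated. Whether the outermost summits belong to GART or SON cannot be told apart here.

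IMPDH2 encodes the inosine monophosphate dehydrogenase that commits purines to guanine nucleotides. Its start had 1 summit, on chromosome 3 at 49066829 in an interval from 49066411 to 49067005, with a fold enrichment of 8.32 (95% counting interval 7.16 to 9.61) and 180 ChIP fragments. The other 6 summits lay 7.10 kb or more away, beyond the 3′ end of this short gene. The strongest of them, at 49059517, had 10.1 (8.73 to 11.5) and 203 ChIP fragments. It was not distinguishable from the start summit within counting error. NDUFAF3 and DALRD3 are the next genes on that side in RefSeq.

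At the deoxynucleotide genes every summit was near the start. RRM2 encodes the small subunit of ribonucleotide reductase, which makes deoxynucleotides from ribonucleotides. Its strongest summit stood alone at -1.23 kb from the estimated 5′ end, position 10260773 on chromosome 2 in an interval spanning 10260297 to 10261104, and it had a fold enrichment of 10.0 with 233 ChIP fragments. The interval over the start, from 10261793 to 10263383, had 4 summits with fold enrichments of 3.82, 6.52, 5.25 and 4.37 in the direction of the gene. The last of these had 162 ChIP fragments, more than 91.4% of the list, on a background of 23 input fragments, the highest of the 52.

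TYMS encodes thymidylate synthase, which methylates deoxyuridylate to deoxythymidylate. Its window had a single interval, on chromosome 18 from 657330 to 658815, with 4 summits. The first and strongest, at 657542, had a fold enrichment of 10.4 (95% counting interval 8.98 to 12.0) and 183 ChIP fragments. The second fell to 3.43 (2.68 to 4.33), and the following 2 had 7.76 and 6.86. The dip at the second summit was outside the counting intervals of the other 3.

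The start intervals of the members were wide and often held several summits. The 14 intervals with a summit within 3 kb of a 5′ end had a median width of 1111 bp, against 279 bp for all intervals of the list. Of these 14, 9 held 2 or more summits, as did 23.6% of all intervals, and 4 held 4 or more, as did 2.63%. A wide interval is more likely to reach a fixed zone, which adds to these counts. Neighbouring summits within these intervals were a median of 436 bp apart over 19 pairs, with quartiles of 304.5 and 498 bp. Over the list the median spacing was 298 bp. The list is not limited to gene starts, so these values do not compare the members with other gene starts.

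Summits near the starts had a higher median fold and more ChIP fragments than the list, while those elsewhere in the windows had a lower median fold. The 33 summits near a 5′ end had medians of 7.18 for fold enrichment and 131 for ChIP fragments. The 19 elsewhere had 4.53 and 84, and the whole list 5.35 and 63. The fold enrichment reached 10 at 8 of the 33 (24.2%, exact 95% CI 11.1 to 42.3) and at 3 of the 19 (15.8%, 3.38 to 39.6). The list had 12%, inside both intervals. More ChIP fragments than the median summit were found at 38 of the 52, where the list had 49.5%. A fold enrichment above the median was found at 29 of the 52, where the list had 50%, so the excess at the members was clearer in fragments than in fold. With no replicate and with summits of one interval sharing reads, no test was made of these differences. The members were also not compared with other gene starts.

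**Figure D2:**
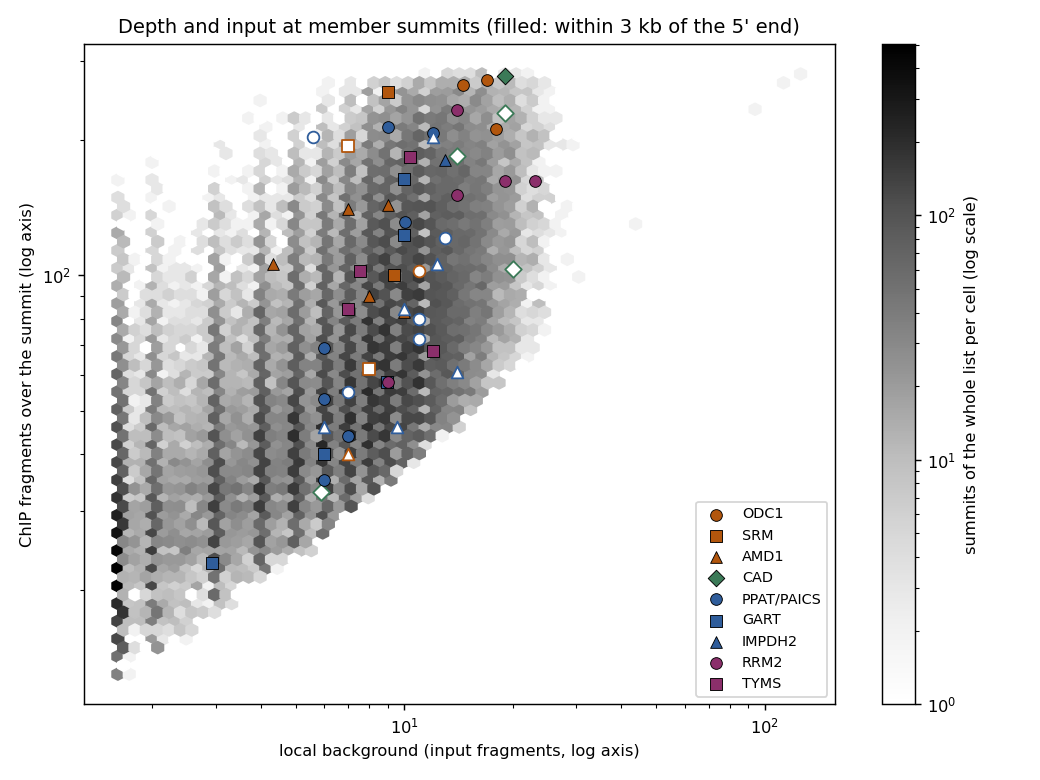
ChIP fragments over a summit (vertical axis, log scale) against the local background in input fragments (horizontal axis, log scale), with the whole list as grey cells shaded by the number of summits and the member summits as symbols, filled within 3 kb of a 5′ end and open elsewhere. CAD (277 fragments), ODC1 (272) and SRM (256) lie along the upper edge of the list, whose highest value is 280.

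The order of the loci depended on the measure. By highest fold enrichment it ran from PPAT and PAICS (19.9) through SRM (16.5), AMD1 (12.9), ODC1 (10.9), TYMS (10.4), IMPDH2 (10.1), RRM2 (10.0) and GART (9.65) to CAD (8.93). In this order the counting intervals of all 8 pairs of neighbours overlapped, while the first, from 17.3, lay above the last, up to 10.0. By most ChIP fragments the order was CAD (277), ODC1 (272), SRM (256), RRM2 (233), PPAT and PAICS (213), IMPDH2 (203), TYMS (183), GART (164) and AMD1 (143). Again all 8 neighbouring pairs overlapped, and the first and the last, from 245 and up to 168, did not. CAD, ODC1 and SRM came close to 280, the highest number in the list. Whether a ceiling on the count shaped either order was not tested. Near the 5′ ends alone, SRM (16.5) came first and PPAT and PAICS (13.8) second by fold, and IMPDH2 (8.32) last. At least 1 summit with a fold enrichment of 10 or more was found in 7 of the 9 windows. Such a summit was present in 8.44% of all 40-kb tiles and in 42% of those with at least 4 summits, as every window had. A maximum tends to be larger where a window has more summits.

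**Figure D3:**
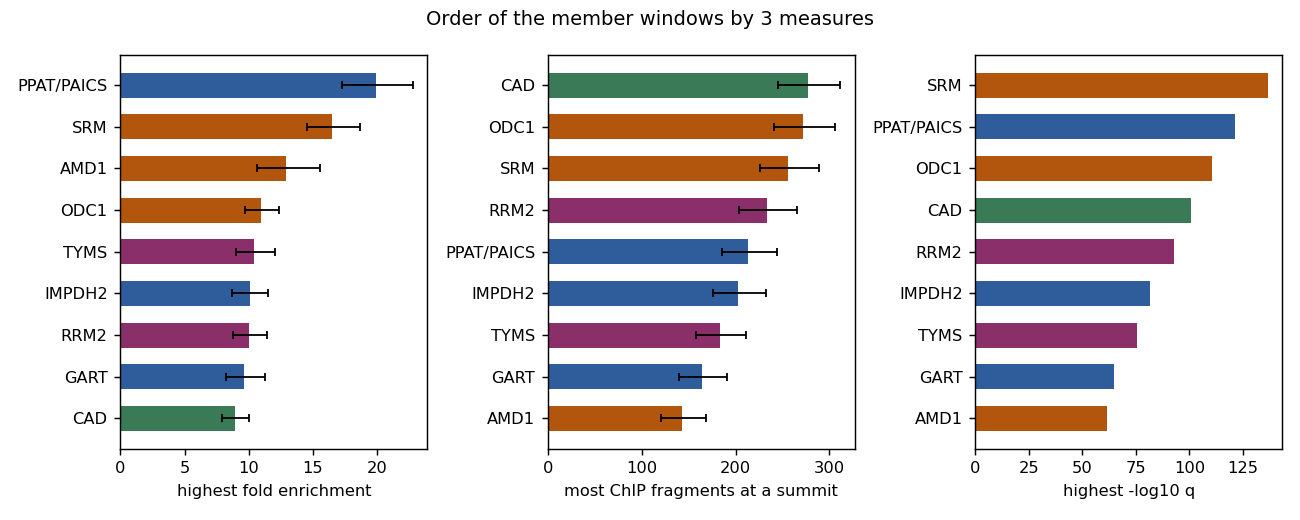
The 9 windows ordered from the highest value at the top by their highest fold enrichment (left), most ChIP fragments at a summit (middle) and highest −log10 q (right), each on an axis from 0, with 95% counting intervals on the first pair of panels. Bars are coloured by pathway. CAD moves from the lowest place by fold to the highest by fragments, and AMD1 from the place after SRM by fold to the lowest by the other measures.

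The input behind these values differed between loci. At the 52 summits the median background was 10 input fragments, and over the list it was 7.56. These values were 6.22 and 4.70 times 1.61 fragments, the lowest background in the list, which was taken as the genome's mean input. By this measure no listed summit can fall below the mean. In all 9 windows the median background was above that of the summits within 1 Mb around the window. The loci on the short arm of chromosome 2, which also carries MYCN, had the highest values. The 14 summits of ODC1, RRM2 and CAD had a median background of 15.8 input fragments and a median of 173 ChIP fragments. The 38 summits of the other windows had 9 and 87. Fold enrichment, the ratio of both, was closer, with medians of 6.85 and 5.94. In the 1 Mb around ODC1 and RRM2 the median background was 11 and 11.5 input fragments, and around CAD it was 13. Elsewhere it was 5 around TYMS to 10 around IMPDH2. The ODC1 and RRM2 windows lie within 1 Mb of each other. Their surroundings overlap and each includes the other window, so they are not separate observations. Copy number can raise both ChIP and input fragments, though no summit of the list had more than 280 ChIP fragments. The part of copy number in the depth and fold of the ODC1, RRM2 and CAD summits was not tested.

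**Figure D4:**
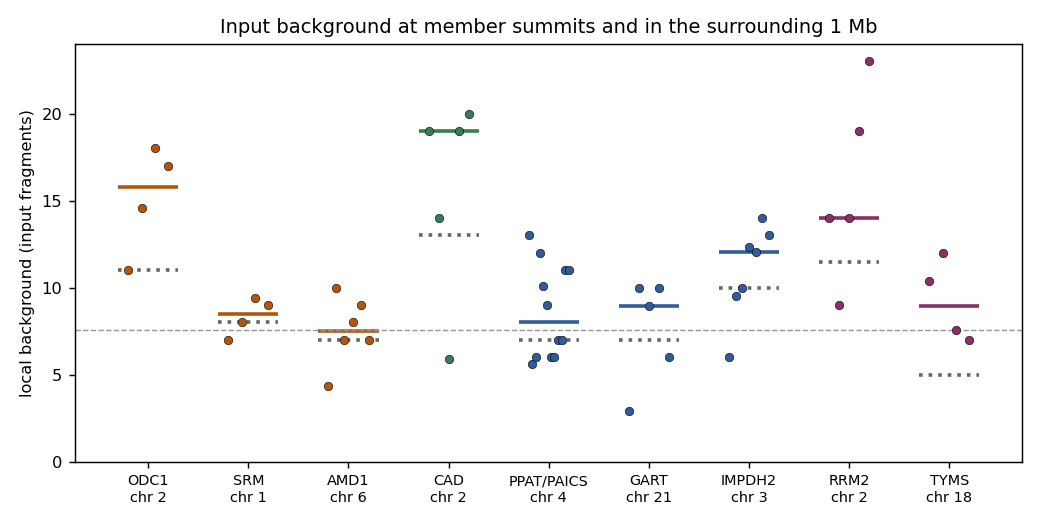
Local background in input fragments (vertical axis, from 0) at each member summit (points), with the median of the window (solid bar) and the median of the summits within 1 Mb around it (dotted grey bar). The thin dashed line is the median of the list, 7.56, and the windows of ODC1 (15.8), CAD (19) and RRM2 (14) on chromosome 2 have the highest medians.

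Against their surroundings, the windows stood out more in depth than in fold. The windows were placed on genes and the surroundings take in every listed site, so this does not compare the members with other genes. The median number of ChIP fragments was above that of the surrounding 1 Mb in 8 of 9 windows, the exception being PPAT and PAICS with 76 against 83.5. The widest gap was at ODC1, with 237.5 against 72 over 95 surrounding summits. The median fold enrichment was above that of the surroundings in 6 of 9 windows, ODC1 and RRM2 sharing much of theirs. It was below it at PPAT and PAICS (5.31 against 6.94), GART (3.998 against 5.26) and IMPDH2 (4.99 against 5.06), the 3 windows of purine synthesis. Window medians include any summits away from the starts. Near the 5′ ends alone the medians were 6.46 at PPAT and PAICS and 3.998 at GART, and the 1 IMPDH2 summit had 8.32. None of the surrounding summits of ODC1, SRM or CAD had more ChIP fragments than the deepest summit of that window, among 95, 139 and 124 summits. By fold, however, 3, 2 and 12 of them exceeded the highest in the window. Around each of the other windows, 1 to 7 summits had more ChIP fragments than its deepest.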

How the data were processed

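MYCN ChIP-seq peaks of Kelly cells were analysed from the deposited peak lists. Tools listed in the submitters' processing notes are MACS2 2.1.1, deepTools 2.2.4, STAR 2.5.1b, Picard and SAMtools 1.3.1, and the build is hg19. Not given in the sources used here are the settings, the handling of duplicates and the way the 2 ChIP samples were combined. Each deposited row gives 1 summit with a fold enrichment (a ratio), a −log10 p-value, a −log10 q-value and an integer score. The deposited score was not used. These are the authors' values, used only to describe and rank peaks within the list. Positions are hg19, counted from 1.

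Members are summits inside the 9 windows. The members and lists were chosen with earlier results of these data known. All 10 genes are named, with the strongest, deepest and start-nearest summits of each window, and neighbouring genes only from the order of genes in RefSeq. No hg19 annotation was used. After removing 10 kb on each side, 6 windows exceeded the RefSeq gene length by 0.425 to 1.57 kb. RefSeq models of AMD1 and RRM2 are longer than their windows, so those 5′ ends could not be checked.

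ChIP fragments and background were solved per summit from fold = (scaled pileup + 1) / (background + 1) and the Poisson tail of the pileup. A single scale, 0.641, solved all 64657 summits in whole fragments to within 0.0005 in −log10 p, and the procedure had been tested on simulated data. The background, in units of input fragments, is a local estimate and not a count at the summit, so it need not be whole. Counting intervals are exact Poisson (fragments) or Clopper-Pearson (shares) at 95%. They cover only counting error: without molecular identifiers, reads need not be separate molecules. The Poisson intervals also assume no ceiling, while no summit in the list had more than 280 ChIP fragments. At CAD the upper bound was 312, so the intervals of the deepest summits, and of their folds, are approximate. No p-value was computed. Python 3.11.15, numpy 2.4.6, pandas 2.3.3, scipy 1.17.1 and matplotlib 3.10.9 were used.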

Additional observations from a re-analysis of the deposited data

How the results depend on the processing

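No paired analysis was possible because the ChIP samples of a state came as 1 joint list, which also kept any replicate from being left out. The 52 summits became 31 with a fold enrichment of at least 5, 32 in windows without their flanks and 25 with 1 count per interval. Under −log10 q thresholds of 5 and 10 there were 48 and 40, and in windows widened by 10 kb there were 58. All 9 windows kept a summit under these thresholds and window sizes. The density ratio of 6.31 was 4.10 with intervals in place of summits and 4.80 to 7.56 otherwise. The median fold enrichment of 6.37 was 8.32 for the strongest summit of each interval and 10.4 for the strongest of each window. The median fragments (104.5) and background (10) were 151 and 9 for the strongest summit of each interval. All 10 genes had a summit near the 5′ end at 2 and at 5 kb. Only 2 of 9 windows held their place in the order by fold when ordered by −log10 q, and 2 by ChIP fragments. CACGTG matched 4 members and CANNTG 7. The list holds no summit under 13 ChIP fragments or a −log10 q of 2.01, and the fewest fragments at a member summit were 23. More fragments are needed where the background is higher, and it was above the list median at 36 of the 52 summits. Weaker binding at these loci was not detectable.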
